A study of Mus musculus with 8 samples.

Results

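Transcripts of the T cell receptor gamma and delta constant regions were measured in single T cells that had been sorted from mouse pancreas for surface T cell receptor beta. The members were chosen by gene symbol: Tcrg-C1 (ENSMUSG00000076749), Tcrg-C2 (ENSMUSG00000076752), Tcrg-C4 (ENSMUSG00000076757) and Trdc (ENSMUSG00000104876), which are 4 of the 32285 features counted. They were described in T cells, meaning cells with at least 2 UMIs (unique molecular identifiers, each counting 1 captured RNA molecule) over Cd3d, Cd3e, Cd3g, Trac, Trbc1 and Trbc2. Their distribution over CD4 cells, CD8 cells and Ccl5-positive cells helped to choose them, so those levels are given as a description, with no test.

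The gamma and delta genes encode the receptor chains of gamma-delta T cells, a lineage that is separate from the alpha-beta T cells carrying T cell receptor beta. Gamma V, J and C segments lie in several small clusters, each with its own constant region, whereas the delta segments lie inside the alpha locus, so that a V-alpha to J-alpha rearrangement removes the delta constant region from that chromosome. Alpha-beta T cells can keep a rearranged gamma gene, and its transcription is commonly low in them.

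NOD mice, which become diabetic through an autoimmune attack on the islets, gave the 8 libraries, all of pancreas. Cells were sorted as CD45-positive, CD3-positive and TcR-beta-positive, frozen, processed at the same time and sequenced with 10x 3′ chemistry, which reads the 3′ end of each transcript. The groups were active diabetes (1 library, blood glucose above 600 mg/dl), onset (1 library, 250 mg/dl), vehicle (ethanol, Tween 20 and PEG300; 1 library on each of days 2, 3 and 4) and PPCA (50 mg/kg Nutlin-3, an MDM2 inhibitor, with 25 mg/kg MK-1775, a Wee1 inhibitor; 1 library on each of days 2, 3 and 4). Active and onset pancreas were labelled day 1. The labels of all 8 libraries give female mice 3 to 4 months old, whereas the treatment protocol gives 3 to 5 months for the treated mice. Vehicle and PPCA mice were newly diabetic at 200 to 300 mg/dl, were treated daily and were harvested the following day. The number of mice in a library is not given in the sources used here, so p-values measure the spread between libraries. The treatment comparison was set up by the study to ask how targeting autoreactive CD4 and CD8 T cells changes the infiltrate.

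Of 80470 barcodes, 70750 passed the cell filters and 70623 were T cells, with 6184 to 11559 T cells and medians of 3854 to 6465 UMIs per T cell in a library. Cells with a Cd4 UMI and no Cd8a or Cd8b1 UMI are called CD4 (27505 cells), the reverse CD8 (22276), those with neither double-negative (17699) and those with both double-positive (3143). A cell with at least 1 Ccl5 UMI is called Ccl5-positive. Ccl5 encodes a chemokine made by effector and memory T cells and is used here as a gate. The CD8 Ccl5-positive class held 6563 cells, 9.29% of T cells. Double-negative status rests on missing UMIs and does not show that a cell lacked CD4 or CD8 protein. Any pair of libraries shared 7 to 31 barcodes. Summed marker levels in the T cells were 35.5 to 81.3 CPM for gamma-delta T cells, 6.91 to 15.2 CPM for B cells, 120 to 149 CPM for myeloid cells, 22.7 to 53.1 CPM for NK cells, 1.79 to 4.98 CPM for NKT and MAIT cells and 10.7 to 143 CPM for pancreas. The NK markers reached 149 to 268 CPM in CD8 Ccl5-positive cells, of which Eomes, also made by CD8 T cells, had 102 to 167 CPM and Klre1 43.9 to 129 CPM; Ncr1, Klrb1c, Klra8 and Tyrobp each had at most 5.33 CPM. Although the mice were labelled female, 4 libraries (vehicle on days 2 and 3, PPCA on days 3 and 4) held Y-linked transcripts at 186 to 272 UMIs per 1000000 UMIs of the class in that library (CPM) and Xist at 0.33 to 0.73 CPM, whereas the other 4 held Xist at 418 to 622 CPM and Y-linked transcripts at 0.07 to 0.17 CPM. Whether the labels of any libraries were exchanged was not tested.

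The constant regions differ in how well 3′ reads can tell them apart, so the start of each first coding exon is shown, 5′ to 3′ in the sense direction, from the GRCm38 genome with the GENCODE vM21 annotation. Tcrg-C1 lies at chr13:19214103-19214222 (+), Tcrg-C2 at chr13:19307432-19307551 (-), Tcrg-C4 at chr13:19344558-19344677 (+) and Trdc at chr14:54142851-54142970 (+). Capitals in Tcrg-C2 (2 bases) and Tcrg-C4 (14 bases) mark differences from Tcrg-C1 within these 120 bases.
Tcrg-C1: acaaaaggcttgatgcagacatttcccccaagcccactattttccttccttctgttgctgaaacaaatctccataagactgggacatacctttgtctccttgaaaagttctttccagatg
Tcrg-C2: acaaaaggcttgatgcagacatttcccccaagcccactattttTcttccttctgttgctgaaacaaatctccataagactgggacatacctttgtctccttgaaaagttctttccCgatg
Tcrg-C4: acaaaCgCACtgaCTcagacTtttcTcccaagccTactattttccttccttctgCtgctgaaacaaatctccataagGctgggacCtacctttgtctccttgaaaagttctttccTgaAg
Trdc: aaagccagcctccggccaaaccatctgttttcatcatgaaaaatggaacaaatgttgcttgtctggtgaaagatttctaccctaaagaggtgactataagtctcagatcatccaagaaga

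Over the whole first coding exon, Tcrg-C1 and Tcrg-C2 were identical at 321 of 330 aligned bases (97.3%), Tcrg-C1 and Tcrg-C4 at 82.1%, and Tcrg-C2 and Tcrg-C4 at 81.5%. The gamma constant coding sequences shared 51.2% to 52.0% of bases with Trdc. The following exons, which code for the connecting stretch before the membrane anchor, set the 3 gamma genes apart by length. They are shown whole, from chr13:19215864-19215908, chr13:19305769-19305798, chr13:19349536-19349589 and chr13:19350330-19350374 in turn, and the capitals in Tcrg-C1 mark 15 bases that Tcrg-C2 lacks.
Tcrg-C1 coding exon 2: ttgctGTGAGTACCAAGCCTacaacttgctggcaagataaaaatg
Tcrg-C2 coding exon 2: ttgctacaacttgctggcaagataaaaatg
Tcrg-C4 coding exon 2: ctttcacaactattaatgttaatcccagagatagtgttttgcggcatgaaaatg
Tcrg-C4 coding exon 3: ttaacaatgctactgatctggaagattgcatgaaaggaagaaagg

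At the 3′ end, where these libraries were read, the last 400 transcript bases of Tcrg-C1 and Tcrg-C2 were 92.1% identical, against 57.1% for Tcrg-C1 and Tcrg-C4. Of the 311 windows of 90 bases in that stretch, 15 (4.82%) of Tcrg-C1 and as many of Tcrg-C2 recurred exactly in another gamma constant gene, and 0 of Tcrg-C4 or Trdc did. Counts of Tcrg-C1 and Tcrg-C2 are therefore the less certain pair, since reads from a shared stretch could not be assigned. NOD mice may differ from the reference strain at some of these bases.

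The annotation puts the gamma genes in 4 clusters on chromosome 13. Tcrg-V7, Tcrg-V4, Tcrg-V6 and Tcrg-V5 precede Tcrg-C1 (chr13:19214103-19217024, plus strand). Tcrg-V3 precedes Tcrg-C3 (chr13:19260884-19263528, plus strand), which is not a member and had 116 UMIs. Trgv2 (chr13:19336573-19337167) precedes Tcrg-C2 (chr13:19304649-19307551) on the minus strand, and Tcrg-V1 (chr13:19339989-19340454) precedes Tcrg-C4 (chr13:19344558-19352756) on the plus strand. Trdc lies on chromosome 14 (chr14:54142851-54148868, plus strand).

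In the T cells as a whole there were 635 Tcrg-C1 UMIs in 379 cells, 4862 Tcrg-C2 UMIs in 2215 cells, 2391 Tcrg-C4 UMIs in 1349 cells and 2795 Trdc UMIs in 1605 cells. The 3 gamma genes and Trdc were spread differently over the cells. The CD8 Ccl5-positive cells, 9.29% of T cells, held 65.2% of Tcrg-C1, 78.2% of Tcrg-C2 and 66.6% of Tcrg-C4 UMIs, and 4.54% of Trdc UMIs. The CD4 cells, 38.9% of T cells, held 5.35%, 3.56% and 5.86% of the gamma constant UMIs and 44.4% of the Trdc UMIs.

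Tcrg-C2, the constant region of the cluster on the minus strand, had 123 CPM in CD8 Ccl5-positive cells of the active library and 146 CPM at onset. In vehicle it had 78.8, 60.8 and 97.9 CPM on days 2, 3 and 4, and in PPCA 210, 63.9 and 55.5 CPM. Every library lay above every library's level in the other 6 classes (CD4, CD8 and double-negative cells with or without Ccl5, and double-positive cells). The median was 88.3 CPM, followed by 20.9 CPM in double-negative Ccl5-positive cells (range 11.4 to 35.1), 7.07 CPM in double-positive cells, 4.77 CPM in double-negative Ccl5-negative cells and 4.27 CPM in CD4 Ccl5-positive cells. From the double-negative Ccl5-positive cells downward, neighbours in this order overlapped between libraries. CD8 cells without Ccl5 had a median of 1.57 CPM and CD4 cells without Ccl5 0.70 CPM.

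Tcrg-C4 followed the same order of classes at the top. Its CD8 Ccl5-positive level was 75.6 CPM in the active and 75.0 CPM in the onset library, 35.2, 16.3 and 31.3 CPM in vehicle, and 61.5, 29.9 and 25.6 CPM in PPCA on days 2, 3 and 4. The median of 33.2 CPM stood above 12.9 CPM in double-negative Ccl5-positive cells, although the ranges (16.3 to 75.6 and 7.10 to 30.7) overlapped. The active and onset libraries were the highest and vehicle on day 3 the lowest.

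Tcrg-C1 differed most between libraries. Among CD8 Ccl5-positive cells it had 30.1 CPM in the onset library and 1.23 CPM in the active library, 3.05, 1.48 and 9.35 CPM in vehicle, and 13.1, 0.37 and 22.3 CPM in PPCA on days 2, 3 and 4. PPCA on day 3 rested on 1 UMI and the active library on 6 UMIs. The median was 6.20 CPM, with 3.03 CPM in double-negative Ccl5-positive cells and 1.17 CPM in double-negative Ccl5-negative cells, and all neighbouring classes overlapped.

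Trdc is the single constant region of the delta chain. In CD8 Ccl5-positive cells it had 2.05 CPM in the active and 4.46 CPM in the onset library, 7.76, 5.29 and 0.58 CPM in vehicle, and 3.09, 4.06 and 2.17 CPM in PPCA on days 2, 3 and 4. This class had the lowest median (3.58 CPM), and the highest was in CD4 cells without Ccl5 (8.68 CPM, range 5.27 to 11.4). All neighbouring classes overlapped, so the order of Trdc levels is that of medians only.

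**Figure D1:**
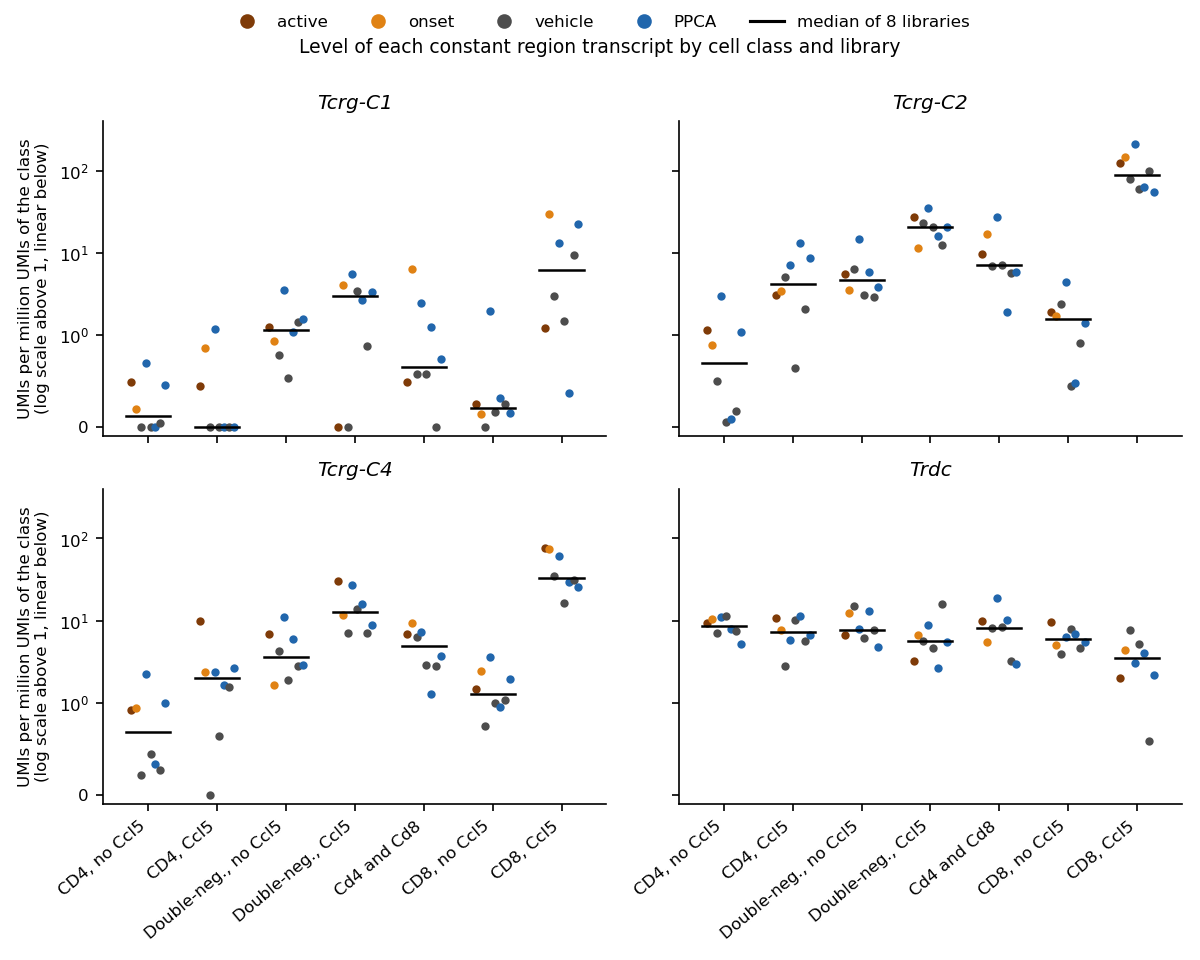
Level of each constant region (CPM, symmetric log axis that is linear below 1) in 7 classes of T cells, 1 point per library and a black line at the median of 8 libraries. Tcrg-C2 in CD8 Ccl5-positive cells lies between 55.5 and 210 CPM, above every other class, while Trdc lies between 0.58 and 7.76 CPM there and has its highest median in CD4 cells without Ccl5.

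Within libraries, the log2 ratio of CD8 over CD4 levels was 4.90 ± 1.04 for Tcrg-C2 and 4.03 ± 1.01 for Tcrg-C4 (mean ± SD, n = 8), positive in 8 of 8 libraries, and 2.66 ± 1.89 for Tcrg-C1, positive in 7 of 8. For Trdc it was -0.62 ± 0.35 and negative in 8 of 8. Of the 7281 features averaging at least 10 CPM, 12.3% were higher in CD8 in all 8 libraries and 23.5% were lower in all 8. Because the classes helped to choose the members, nothing is read from this comparison of counts.

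Among CD8 cells, the log2 ratio of Ccl5-positive over Ccl5-negative levels was 6.15 ± 0.80 for Tcrg-C2, 4.73 ± 0.72 for Tcrg-C4 and 3.84 ± 1.87 for Tcrg-C1, positive in 8 of 8 libraries for each, where 24.6% of features were positive in all 8. The lowest Tcrg-C2 level with Ccl5 (55.5 CPM) lay above the highest without it (4.41 CPM), and 4.34% of features were higher without overlap. For Trdc it was -0.95 ± 1.10 and negative in 7 of 8, with vehicle on day 2 at 0.99. Counts under 3 were raised to 3 before each ratio. The Tcrg-C1 ratio of 1.80 in PPCA on day 3, where CD8 Ccl5-positive cells had 0.37 CPM, therefore rests on that floor. Over 8 libraries the CD8 Ccl5-negative cells held 30 Tcrg-C1 UMIs and the CD4 cells 34, so other Tcrg-C1 ratios lean on it too. Double-negative over CD4 gave 2.86 ± 1.05 for Tcrg-C2, 2.80 ± 1.08 for Tcrg-C4 and 2.24 ± 0.65 for Tcrg-C1, positive in 8 of 8 libraries, where 2.11% of features were. Ccl5-positive over Ccl5-negative double-negative cells gave 1.97 ± 0.51 for Tcrg-C2 and 1.79 ± 0.77 for Tcrg-C4, positive in 8 of 8, where 5.86% of features were. Over all T cells the same ratio was 5.00 ± 0.55 for Tcrg-C2, 3.90 ± 0.60 for Tcrg-C4 and 3.09 ± 1.44 for Tcrg-C1, positive in 8 of 8 (22.9% of features were), and -0.63 ± 0.19 for Trdc, negative in 8 of 8 (9.48% of features were). Double-negative over CD4 for Trdc was 0.01 ± 0.65, with 4 libraries on either side of 0. The shares of features are over those averaging at least 10 CPM in the compared classes. Tcrg-C1 and Trdc lay below that limit in each of these comparisons. In double-negative over CD4 every member did, Tcrg-C2 averaging 7.61 and 1.34 CPM, so these shares are no like background for them.

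The gamma constant levels followed the Ccl5 count across the CD8 cells. Cells with 0, 1, 2 to 4, 5 to 9 and 10 or more Ccl5 UMIs (15713, 1661, 433, 319 and 4150 cells) had 1.43, 4.05, 10.8, 66.0 and 174 CPM of Tcrg-C2, pooled over libraries. The share of cells with a Tcrg-C2 UMI was 0.59%, 1.51%, 3.93%, 16.6% and 37.6% in the same order, at unequal depth. Cells with exactly 1 Ccl5 UMI, just inside the gate, were thus nearer to the Ccl5-negative cells than to those with 10 or more. Tcrg-C4 had 1.51, 2.99, 16.0, 35.5 and 69.8 CPM and Tcrg-C1 had 0.33, 0.68, 2.78, 5.58 and 18.8 CPM. Trdc went the other way, at 6.70, 5.41, 2.78, 3.55 and 2.71 CPM. Its value at 5 to 9 Ccl5 UMIs rested on 7 UMIs in 0.31% of 319 cells, with a median over libraries of 0 CPM. At the T cell gate itself, 65 cells with exactly 1 UMI over the 6 gate genes, just outside, held no member UMI, and 69 cells with 2 UMIs, just inside, held 3 UMIs, all of Trdc.

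**Figure D2:**
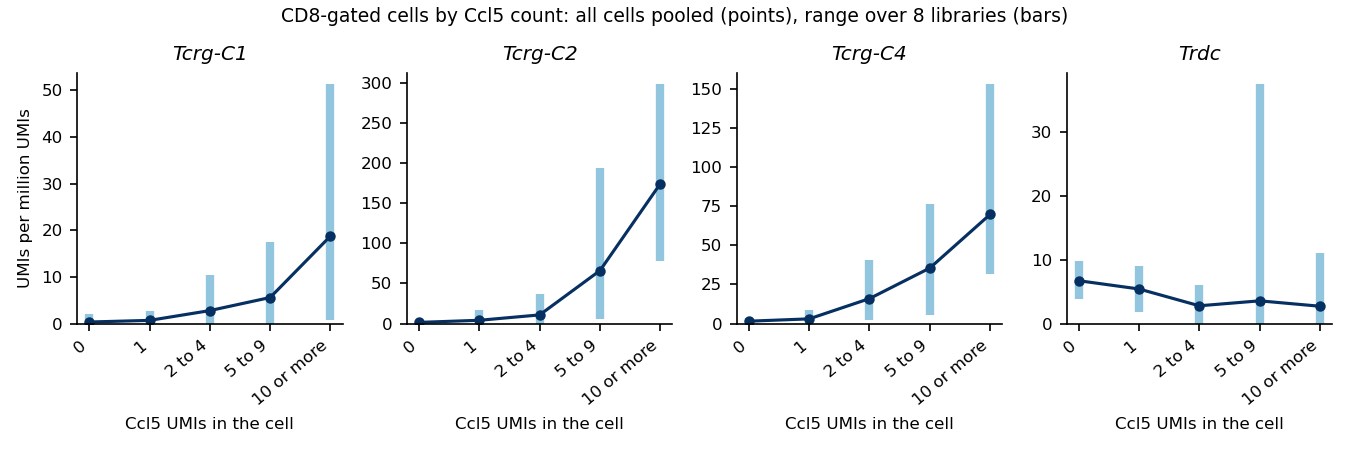
Level of each constant region (CPM) in CD8 cells by number of Ccl5 UMIs, with points for the 8 libraries pooled and bars for the range over libraries. Tcrg-C2 goes from 1.43 CPM at 0 Ccl5 UMIs to 174 CPM at 10 or more, and Trdc from 6.70 to 2.71 CPM.

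The CD8 class joins cells with the CD8 beta chain, as on conventional CD8 T cells, and cells with only the alpha chain detected. Tcrg-C2 had a median of 87.8 CPM (55.6 to 212) in the 6151 Ccl5-positive cells with a Cd8b1 UMI and 85.5 CPM (39.5 to 165) in the 412 with Cd8a but no Cd8b1 UMI. The ranges over libraries overlapped. Tcrg-C4 had medians of 32.7 and 48.7 CPM and Tcrg-C1 of 6.27 and 2.49 CPM. Tcrg-C1 had 9.88 and 89.8 CPM in PPCA on day 2, but 31.2 and 0 CPM at onset, and 4 libraries had none without Cd8b1. The cells without Cd8b1 held 83 Tcrg-C4 and 29 Tcrg-C1 UMIs in all.

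To compare shares of positive cells, each cell was thinned to 2000 UMIs, which left out 146 of the 6563 CD8 Ccl5-positive cells. A Tcrg-C2 UMI was then found in 18.8% of CD8 Ccl5-positive cells of the active library, in 23.2% of the onset library, in 15.5%, 12.9% and 18.9% in vehicle and in 30.6%, 11.6% and 11.3% in PPCA on days 2, 3 and 4. The unthinned shares ran from 16.5% to 37.3%. Tcrg-C4 was found in 3.84% to 14.9% of these cells and Tcrg-C1 in 0% to 5.68%. At least 1 of the 3 gamma constant regions was found in 15.4% to 36.1% (unthinned 21.0% to 43.3%), against 0.32% to 1.70% of CD8 Ccl5-negative cells, 0.90% to 2.89% of double-negative cells and 0.11% to 0.75% of CD4 cells. The ranges did not overlap between CD8 Ccl5-positive cells and those other classes, whose median depths lay between 4166 and 5532 UMIs against 4872 UMIs in CD8 Ccl5-positive cells.

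Trdc was found in 0.66% to 1.62% of T cells after thinning (unthinned 1.25% to 3.07%), in 0.85% to 1.68% of CD4 cells, 0.51% to 1.34% of CD8 cells and 0.72% to 2.21% of double-negative cells. Barcodes outside the T cell gate were too few for a firm background: 0 of 54 barcodes in a B cell gate (median 4022.5 UMIs) had a Trdc UMI, which allows a share of up to 5.56% by 3 counts (exact 95% upper limit 6.60%), and 0 of 127 non-T barcodes did, which allows up to 2.36% (exact 2.86%). These barcodes were not thinned; the unthinned Trdc shares in T cells ran from below to above the limits of 2.36% and 2.86%. Of the 127 barcodes, 1 (0.79%) had a Tcrg-C2 UMI. These limits cover counting error only.

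Part of the signal came from cells with several UMIs. Trdc reached 24 UMIs in 1 cell, and 236 cells with 3 or more UMIs held 1144 of its 2795 UMIs. Of these 236 cells, 104 were CD4, 61 CD8 and 56 double-negative, and 6 had a gamma constant UMI. Tcrg-C2 had 3 or more UMIs in 667 cells, 542 of them CD8 Ccl5-positive, with a highest count of 15. Tcrg-C1 reached 11 and Tcrg-C4 13 UMIs in a cell.

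Cells with gamma constant UMIs also carried alpha and beta chain transcripts. The gate uses these genes, and 71 T cells had no UMI of Trac, Trbc1 or Trbc2, of which 39 were left after thinning. Before thinning 1 of the 71 had a Tcrg-C2 UMI and 1 a Trdc UMI. After it none of the 39 had a UMI of any member, with an exact upper limit of 9.03%. Among CD8 Ccl5-positive cells, Tcrg-C2 was found in 18.2% of those with a Trac UMI and in 17.7% of the 334 without one (exact 95% interval 13.7% to 22.2%). In double-negative cells it was found in 0.81% of those with a Trac UMI and in 1.52% of the 1447 without one (0.96% to 2.29%), and Tcrg-C4 in 0.64% and 1.31% (0.79% to 2.04%).

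The gamma constant regions were found together more often than independent draws within a library would give. In thinned CD8 Ccl5-positive cells, 269 cells had both Tcrg-C2 and Tcrg-C4 where the product of the shares gave 113, with more than the product in 8 of 8 libraries. Tcrg-C1 and Tcrg-C2 were found together in 60 cells against 31.7, and Tcrg-C1 and Tcrg-C4 in 19 against 15.6. Trdc and a gamma constant region were found together in 7 T cells against 25.5, below the product in 8 of 8 libraries. These counts are descriptions, and what part differences in Ccl5 level had in them was not tested.

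The V segments of the gamma and delta loci were read out beside the members. Of 31 gamma and delta V, D and J features searched, 16 had at least 50 UMIs in T cells and 6 had none. Trgv2, the V segment of the Tcrg-C2 cluster, had 5434 UMIs in 2253 T cells, of which 1720 were CD8 Ccl5-positive. Tcrg-V1 had 611 UMIs in 490 cells, Tcrg-V7 93 UMIs in 81 cells and Tcrg-V4 52 UMIs in 44 cells. Trgv2 was added to the list, and singled out, after its values had been seen. Its first 120 bases of coding exon 2 (chr13:19336760-19336879, minus strand) are shown with those of Tcrg-V1 (chr13:19340151-19340270, plus strand) because they are near copies: capitals in Tcrg-V1 mark 3 differences, and over their whole coding sequences the pair was 95.1% identical in a gapped alignment, so the counting may have split or lost their reads.
Trgv2: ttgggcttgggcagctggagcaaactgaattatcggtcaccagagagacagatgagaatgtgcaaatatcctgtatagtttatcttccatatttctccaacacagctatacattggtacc
Tcrg-V1: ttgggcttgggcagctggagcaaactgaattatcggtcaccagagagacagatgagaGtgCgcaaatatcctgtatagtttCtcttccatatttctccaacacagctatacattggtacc

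Cells with a V segment UMI were far richer in constant region UMIs. Among CD8 Ccl5-positive cells, those with a Trgv2 UMI had Tcrg-C2 in 73.5% (exact 95% interval 71.3% to 75.6%), against 8.11% without one. They had Tcrg-C4, which lies in another cluster, in 34.0% against 6.30%. Tcrg-C1 was found in 6.92% against 2.35%, and Trdc in 0.29% against 1.05%. The excess of Tcrg-C2 and of Tcrg-C4 was present in 8 of 8 libraries.

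The 352 CD8 Ccl5-positive cells with a Tcrg-V1 UMI had Tcrg-C4, the constant region of its own cluster, in 59.4% against 10.9%, and Tcrg-C2 in 68.8% against 22.8%. The 71 with a Tcrg-V7 UMI had Tcrg-C1, again of the same cluster, in 64.8% (52.5% to 75.8%) against 2.88%. They had Tcrg-C2 in 64.8% against 24.8% and Tcrg-C4 in 18.3% against 13.5%. Tcrg-V7 thus went with Tcrg-C1 where Trgv2 and Tcrg-V1 seldom did. Tcrg-V4 differed in location: 22 of its 44 cells were double-negative and Ccl5-negative, and over all T cells 68.2% of the 44 had Tcrg-C2, 43.2% Tcrg-C4 and 25.0% Tcrg-C1. These shares are not thinned, and cells with more UMIs have more chance of holding both transcripts.

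The 3 delta V segments with at least 50 UMIs had Trdc in 2.74% to 8.83% of their cells. Of the 521 T cells with a Trdv2-2 UMI, 8.83% (6.54% to 11.6%) had a Trdc UMI against 2.22% of the others, higher in 8 of 8 libraries. The 296 cells with Trdv1 had Trdc in 3.72% against 2.27%, and the 73 cells with Trdv2-1 in 2.74%. The V segments that alpha and delta chains share had Trdc in 0.95% to 5.00% of their cells; Trav14d-3-dv8, with 3085 UMIs in 2514 cells, had it in 3.06% against 2.24%.

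**Figure D3:**
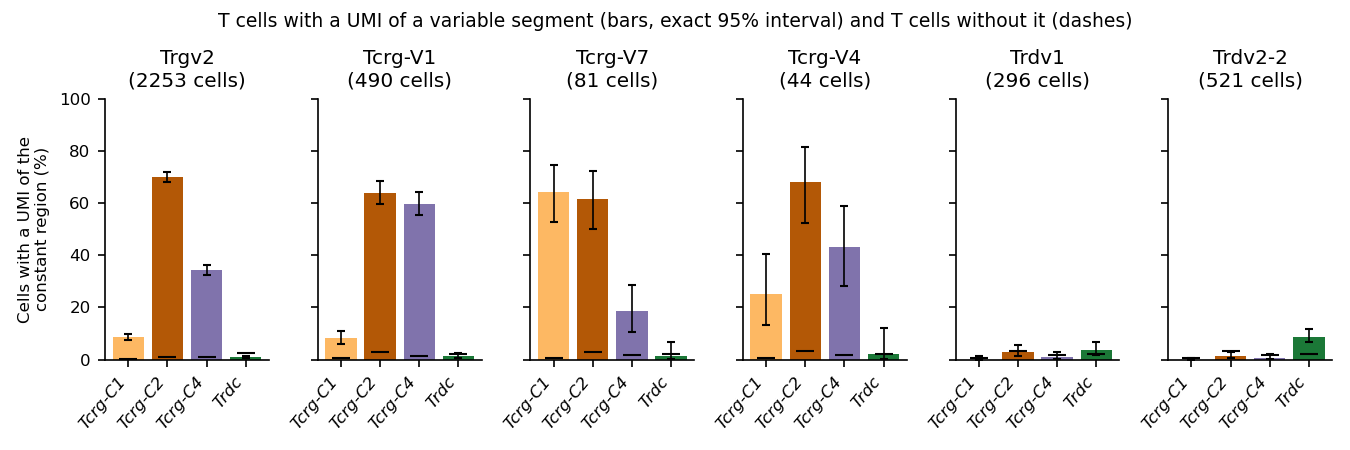
Share of T cells with a UMI of a V segment that also have a UMI of each constant region (bars, percent, with exact 95% binomial intervals), beside the share among T cells without that segment (dashes). Cells with Trgv2 have Tcrg-C2 in 70.1% against 0.93%, while cells with Trdv2-2 have Trdc in 8.83% against 2.22%.

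Members left out, the genes whose levels were most like Tcrg-C2 over 48 sums (6 cell classes in 8 libraries, 7357 features, Pearson correlation of log2 CPM) were Trgv2 (0.98), Slamf7, Klrc2, Plek and Ctla2a (0.94 each). Slamf7 and Klrc2 encode receptors known from NK cells and cytotoxic T cells. For Tcrg-C4 they were Trgv2 (0.96), Plek (0.91), Camk2n1, Slamf7 and Klre1 (0.90 each), and for Tcrg-C1 Isg20 (0.78), Lamtor4 and Trgv2 (0.77 each), Mad2l2 and Med10 (0.75 each). Trdc was most like Fem1b (0.71), 1700056E22Rik, Grk6 and Tubb2a (0.68 each) and Dusp10 (0.67). Among the members, Tcrg-C2 and Tcrg-C4 correlated at 0.95, Tcrg-C1 with Tcrg-C4 at 0.78 and with Tcrg-C2 at 0.75, and Trdc with the gamma genes at -0.54 to -0.46. The sums share libraries and cell classes, so these values describe a pattern and carry no p.

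What set gamma-positive cells apart inside the CD8 Ccl5-positive class was tested with edgeR's quasi-likelihood test, with library as a block, on thinned cells with (1553) and without (4864) a Tcrg-C1, Tcrg-C2 or Tcrg-C4 UMI. Of 6912 features, 794 (11.5%) were higher and 810 (11.7%) lower at a Benjamini-Hochberg adjusted p of 0.05, counts that include Tcrg-C2 and Tcrg-C4 themselves. The naive list, genes of cells that recirculate through lymph nodes, fell as a whole: 7 of 7 measured genes were lower, with a median log2 fold change of -2.52, where the median over all features was 0.01. Ccr7, a chemokine receptor that guides T cells into lymph nodes, was at 16.2 CPM in positive and 155 CPM in negative cells (log2 fold change -3.37, SE 0.14, adjusted p = 1.82e-26), and Dapl1 at 15.9 against 264 CPM (-4.33, SE 0.14).

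The memory and residency list rose in 8 of 10 measured genes and fell in 0, with a median log2 fold change of 0.97, the gate gene Ccl5 left out. Cxcr6, a chemokine receptor of tissue-resident T cells, was at 1084 CPM in gamma-positive and 316 CPM in gamma-negative cells (1.61). Itgae, the integrin chain CD103 that binds E-cadherin, was at 166 against 46.3 CPM (1.59), and Itga1, the integrin chain CD49a, had a log2 fold change of 1.67. Among the 10 largest increases outside receptor segments were Cdh1, which encodes E-cadherin itself, at 96.0 against 19.3 CPM (2.08, SE 0.15), S100a4 at 1885 against 443 CPM (1.90, SE 0.09) and 2900026A02Rik at 68.1 against 11.6 CPM. The others were Plekhf1, Csf1, Krt83, Ckb, Adgrg1, Metrnl and Litaf, at 34.2 to 48.1 CPM in gamma-positive and 6.71 to 11.1 CPM in gamma-negative cells on average. Genes this low in 1 of the groups passed the count filter mainly through the other, so these levels are a description.

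Innate-like and NK receptor genes rose in 8 of 13 and fell in 1. Klre1 (1.05), Klrc1 (1.02) and Cd7 (1.00) had the largest increases, and Klra1, a Ly49 receptor, fell by 2.14 on the log2 scale. Of 17 regulators of the gamma and delta loci and of gamma-delta fate, 4 rose and 6 fell. Id2 (0.99), Tox (0.55) and Runx3 (0.27) rose, and Lef1 (-2.68), Tcf7 (-1.92) and Il7r (-1.11) fell. Il7r encodes the interleukin 7 receptor, whose signal opens the gamma locus in development. Id3, counted among the 6, was at 7.89 against 47.7 CPM. It passed the count filter mainly through the gamma-negative cells, so its levels are a description. Outside these lists Ccr9, Gzmm, Plac8, Pde2a, Tdrp and Bach2 were among the largest decreases, at 2.34 to 6.28 CPM in gamma-positive and 40.5 to 62.2 CPM in gamma-negative cells, again as a description.

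The T cell receptor complex was mixed, with 3 genes higher and 3 lower of 8. Trat1 (0.82), Cd3g (0.63) and Cd3e (0.33) rose, while Trbc1 (-0.46), Cd247 (-0.27) and Cd3d (-0.24) fell on the edgeR scale, although in plain CPM Cd3d was higher in gamma-positive cells in 5 of 8 libraries, Trbc1 in 4 and Cd247 in 3. Trac (0.12, adjusted p = 0.126) and Trbc2 (0.09, adjusted p = 0.279) did not pass the test. Trgv2 was at 454 CPM in gamma-positive and 57.7 CPM in gamma-negative cells (2.76, SE 0.09). Of the gamma-delta T cell markers, only Maf had counts enough to be tested in this class, at -0.19, and it was not called. Their summed level in CD8 Ccl5-positive cells was 13.8 to 43.0 CPM, with Kcnk1 at 0 and Sox13 and Blk at 1 UMI each, while Maf had 518 UMIs, Cd163l1 107 of its 139 T cell UMIs and 5830411N06Rik 101 of 360.

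Ccl5 itself was at 15554 CPM in gamma-positive and 7216 CPM in gamma-negative cells (0.95), so the contrast was repeated in cells with at least 10 Ccl5 UMIs (1464 against 2612), an alternative chosen after the data were seen. It called 266 genes higher and 351 lower of 5577. Ccr7 (-2.31), Itgae (1.44), Cxcr6 (0.94), Cdh1 (1.41) and Trgv2 (2.01) kept their direction and their call, and Klre1 (0.24, adjusted p = 0.22), Trbc1 (-0.19, adjusted p = 0.238), Cd247 (-0.10, adjusted p = 0.634) and Cd3d (-0.18, adjusted p = 0.0624) no longer passed. What part the Ccl5 level had in the remaining differences was not tested.

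A contrast added after the values were seen compared double-negative Ccl5-negative T cells with (144) and without (14937) a gamma constant UMI, with library as a block (edgeR, thinned cells). It called 188 (2.82%) of 6676 features higher and 576 (8.63%) lower, and the median log2 fold change over all features was -0.27. With DESeq2's size factors the split was 281 higher and 330 lower, and with DESeq2 228 and 225. Lgals3, which encodes the lectin galectin-3, was at 1015 CPM in gamma-positive and 7.69 CPM in gamma-negative cells. Tmem176a, known from type 17 lymphocytes, was at 759 against 6.25 CPM, and its neighbour Tmem176b at 670 against 7.26 CPM. Cxcr6 was at 976 against 12.8 CPM. Genes this low in the gamma-negative cells, 5830411N06Rik at 0.60 CPM among them, passed the count filter through the gamma-positive cells, so their levels are a description, and neither their fitted fold changes nor a count over the list of gamma-delta T cell markers is given. Trgv2 was at 354 against 1.43 CPM. Maf, a transcription factor on the same list, was at 452 against 43.2 CPM (log2 fold change 2.85).

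In these double-negative cells 7 of 7 naive genes fell, Dapl1 among them at 27.9 against 258 CPM. Of the other decreases named by the rule, Nsg2 was at 4.17 against 61.9 CPM. Dusp10 was at 16.9 against 177 CPM, Il6ra at 24.6 against 166 CPM, and Pdlim1 had no UMI in the gamma-positive cells. Genes this low in the gamma-positive cells passed the count filter through the gamma-negative cells, so these levels are a description. The alpha and beta constant regions were lower on the edgeR scale: Trac (-0.92), Trbc1 (-0.86) and Trbc2 (-0.52), of which Trbc2 in plain CPM was 1981 in gamma-positive and 2008 in gamma-negative cells. Of 18 measured regulators of the gamma and delta loci and of gamma-delta fate 4 rose and 6 fell, with a median of -0.55. Il7r (1.57), Id2 (2.48), Runx3 (1.12) and Egr1 (0.62) rose, and Lef1 (-2.49), Tcf7 (-1.28), Bcl11b (-1.11) and Ikzf1 (-0.83) fell. Id3 and Tox were counted as lower too. The gamma-positive cells gave only 14000 to 72000 UMIs per library, so calls of low genes such as Id3 and Tox are a description. Il7r had fallen in gamma-positive CD8 Ccl5-positive cells, and the difference between the classes was not tested. Trdc had too few counts to be tested there.

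**Figure D4:**
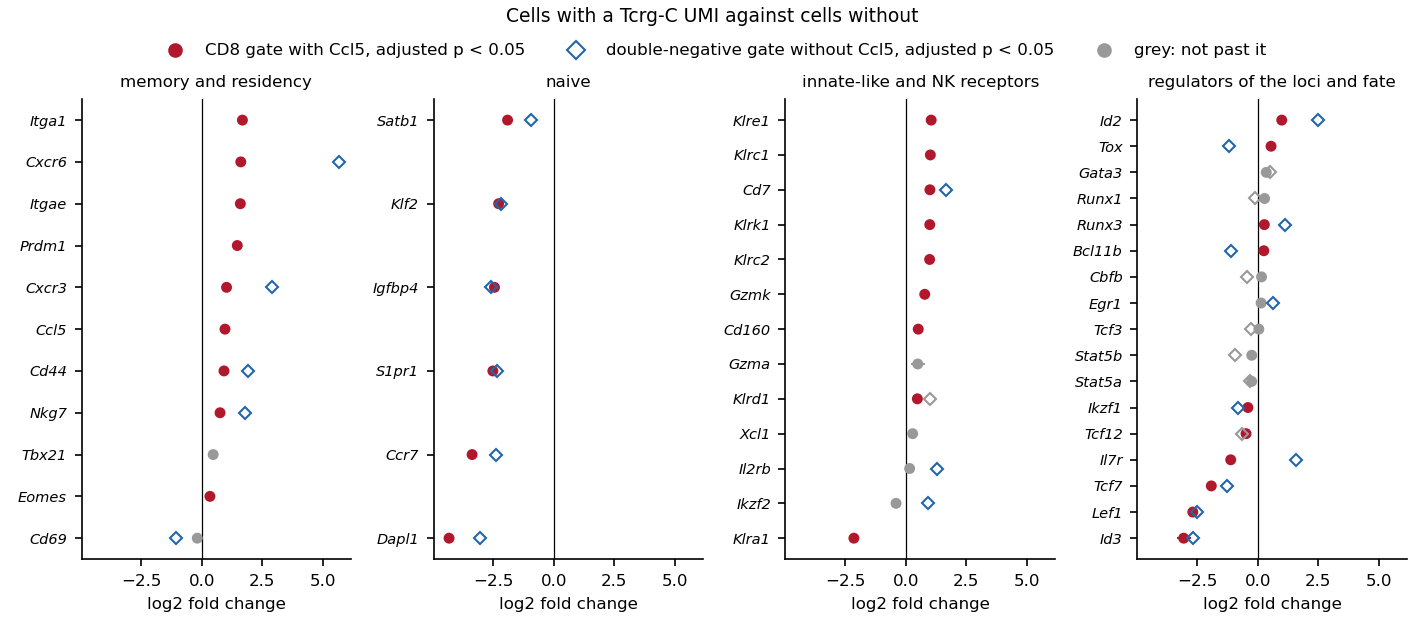
Log2 fold change between cells with and without a gamma constant UMI for genes of 4 lists, in CD8 Ccl5-positive cells (circles, with standard errors) and in double-negative Ccl5-negative cells (open diamonds, no error bars), coloured where the adjusted p is under 0.05 and grey otherwise. In CD8 Ccl5-positive cells every naive gene shown lies below 0 and 9 of 11 memory and residency genes, the gate gene Ccl5 among them, are called above 0.

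The same test was run on the 827 thinned T cells with and the 68496 without a Trdc UMI. Of 10146 features 6 (0.0591%) were higher and 62 (0.611%) lower, with Trdc among the 6. The others were Trbc1, the first T cell receptor beta constant region, Trdv2-2, Gzma, Itm2a and Gm12840. Trbc1 was at 1006 CPM in Trdc-positive and 832 CPM in Trdc-negative cells (log2 fold change 0.22, SE 0.04, adjusted p = 0.000109), higher in 8 of 8 libraries; at 2 or more Trdc UMIs the value was -0.09, and without PPCA on day 2 it missed the threshold (0.19, adjusted p = 0.0578). Trdv2-2 had a log2 fold change of 2.38 and was higher in 6 of 8. Trac (-0.11, adjusted p = 0.441) and Trbc2 (0.04) were not called.

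In Trdc-positive cells 5 of 10 measured memory and residency genes were lower, with a median of -0.996 where the median over all features was -0.06 and the gate gene Ccl5 was left out. Trdc levels by Ccl5 status helped to choose the members, so this is a description, and in cells without a Ccl5 UMI no gene of the list was called lower. Cxcr6 was at 22.2 against 79.4 CPM (-1.95, SE 0.19), S100a6 at 51.3 against 204 CPM (-2.16, SE 0.13) and Itgb1, an integrin chain, at 89.4 against 176 CPM (-1.07, SE 0.11). Jaml (-1.35), Lgals1 (-0.80) and Nkg7 (-0.75) were lower too. The gate genes Cd8b1 (-0.78) and Cd8a (-0.76) were lower in Trdc-positive cells in 8 of 8 libraries, and Cd4 gave 0.26 (adjusted p = 0.148). What part the mix of CD4 and CD8 cells had in these values, and in that of Trbc1, was not tested. Ifng (-1.38) was also called, but its value was 0.48 in cells without a Ccl5 UMI.

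Innate-like and NK receptor genes fell in 4 of 15 (Xcl1, Gzmk, Il2rb and Klrd1, -2.18 to -0.68) and 1, Gzma, was called higher, although it was lower in 5 of 8 libraries and at -0.76 with DESeq2. Of 19 regulators Id2 (-0.47) and Il7r (-0.21) fell and 0 rose. No gene of 7 in the naive list, and none of 3 gamma-delta T cell markers, was called. In cells without a Ccl5 UMI (726 against 56490), an alternative chosen after the data were seen, 2 features were higher and 1 lower of 9824: Itgb1 (-0.97, adjusted p = 7.29e-09) remained, while S100a6 (-0.81, adjusted p = 0.0777) and Trbc1 (0.20, adjusted p = 0.0777) no longer passed. Without the library block 1 feature was higher and 0 lower. With DESeq2's size factors the split was 21 higher and 36 lower, and leaving out the active library left 41 lower.

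PPCA was compared with vehicle over 3 libraries each, with day as a block, in edgeR. Among T cells, Tcrg-C2 was at 11.2, 6.61 and 7.35 CPM in vehicle on days 2, 3 and 4 and at 37.8, 6.53 and 10.8 CPM in PPCA. The arms overlapped, PPCA was higher on 2 of 3 days, and the PPCA library of day 2 lay above the other 5. The log2 fold change was 0.70 (SE 0.31, adjusted p = 0.650). Tcrg-C4 was at 5.16, 2.58 and 3.18 CPM in vehicle and 14.0, 4.00 and 5.72 CPM in PPCA, higher on 3 of 3 days (0.90, SE 0.20, adjusted p = 0.466). The Tcrg-C4 difference therefore had one direction on every day but did not pass the test.

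Tcrg-C1 was at 0.48, 0.36 and 0.99 CPM in vehicle and 3.59, 0.42 and 3.90 CPM in PPCA (1.76, SE 0.48, adjusted p = 0.529), with PPCA above vehicle on each day and the day 3 pair close together. Trdc was at 7.51, 8.58 and 6.50 CPM in vehicle and 8.46, 8.33 and 4.76 CPM in PPCA (-0.19, SE 0.16, adjusted p = 0.782), with the arms interleaved. No member passed among all T cells, and of 13241 features 0 did (0%). At an unadjusted p under 0.05 there were 1041, and DESeq2 found 68 features and limma-voom 0 at an adjusted p under 0.05. Without the day 4 pair edgeR called 35 in T cells and 125 in CD8 Ccl5-positive cells.

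Within the classes the members did not pass either. In CD8 Ccl5-positive cells Tcrg-C2 had 79.1 ± 18.6 CPM in vehicle and 110 ± 86.9 CPM in PPCA (mean ± SD, n = 3), and the PPCA minus vehicle differences were 131, 3.12 and -42.5 CPM on days 2, 3 and 4 (log2 fold change 0.16, adjusted p = 0.944). The signs on days 2 and 4 went with the Xist split: on day 2 PPCA had Xist and vehicle Y-linked transcripts, on day 4 the reverse, and on day 3 both had Y-linked transcripts. Within the pairs of days 2 and 4, treatment and this split cannot be told apart; with the split as a further factor over all 3 days the log2 fold change was 0.16 (edgeR, adjusted p = 0.581). Without the day 2 pair it was -0.48. Tcrg-C4 there gave 0.38 (adjusted p = 0.785), Tcrg-C1 1.28 (SE 0.39, adjusted p = 0.598) and Trdc -0.48 (adjusted p = 0.896), where 1 of 10006 features (0.00999%) passed. In CD4 cells Tcrg-C2 had 0.48 ± 0.48 CPM in vehicle and 2.17 ± 1.54 CPM in PPCA (2.22, SE 0.38, adjusted p = 0.399). The difference between the CD8 and CD4 responses of Tcrg-C2 was -1.39 (SE 0.44, adjusted p = 1), where 1 of 11595 features (0.00862%) passed. Adjusted p values in double-negative cells were 0.624 to 0.881 for the 4 members.

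The outcome depended on the low-count filter, on the split by Xist and on day 4. Without the filter Tcrg-C1 (adjusted p = 0.0137) and Tcrg-C4 (adjusted p = 0.0137) passed in T cells, Tcrg-C2 (adjusted p = 0.00198) in CD4 cells and Tcrg-C1 (adjusted p = 0.000914) in CD8 cells, all with PPCA higher. With the Xist or Y-linked status of the library as a further factor, Tcrg-C2 in CD4 cells (adjusted p = 0.00641) and Tcrg-C1 in CD8 cells (adjusted p = 0.0255) passed as well. Both settings also called Tcrg-C4 in CD8 and in double-negative cells and Tcrg-C1 in CD8 Ccl5-positive cells, with PPCA higher. Without the day 4 pair, Tcrg-C4 passed in CD8 cells (0.78, adjusted p = 0.0469) and in double-negative cells (1.28, adjusted p = 0.0048). It also passed in CD8 Ccl5-positive cells (0.72, adjusted p = 0.0321), with PPCA higher in each and 2 days left. The fits with Xist status or without the day 4 pair had nearly as many terms as libraries. They left little to measure the spread between libraries, so these calls are uncertain.

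Shares of positive cells did not follow the levels on every day. At least 1 gamma constant region was found in 1.88% ± 0.46 of vehicle and 3.80% ± 2.46 of PPCA T cells (mean ± SD, n = 3, thinned), higher in PPCA on 3 of 3 days (exact sign-flip permutation test over days, two-sided, p = 0.25, the smallest that 3 days allow). The day 3 difference was 0.051 percentage points, and unthinned, or at 2 or more UMIs, PPCA was higher on 2 of 3 days (exact p = 0.5). Tcrg-C4 in CD8 Ccl5-positive cells was found in 5.46% against 8.37% (higher on 3 of 3 days, exact p = 0.25; on 2 of 3 unthinned, and on 2 of 3 by CPM), and Tcrg-C2 there in 15.8% against 17.8% (higher on 1 of 3 days, exact p = 1; on 2 of 3 by CPM). Trdc was found in 1.16% of vehicle and 1.11% of PPCA T cells (exact p = 0.75). CD8 Ccl5-positive cells made up 7.45% ± 2.09 of vehicle and 11.1% ± 4.03 of PPCA T cells (higher on 2 of 3 days, exact p = 0.5), and the part of this share in the T cell values was not tested.

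**Figure D5:**
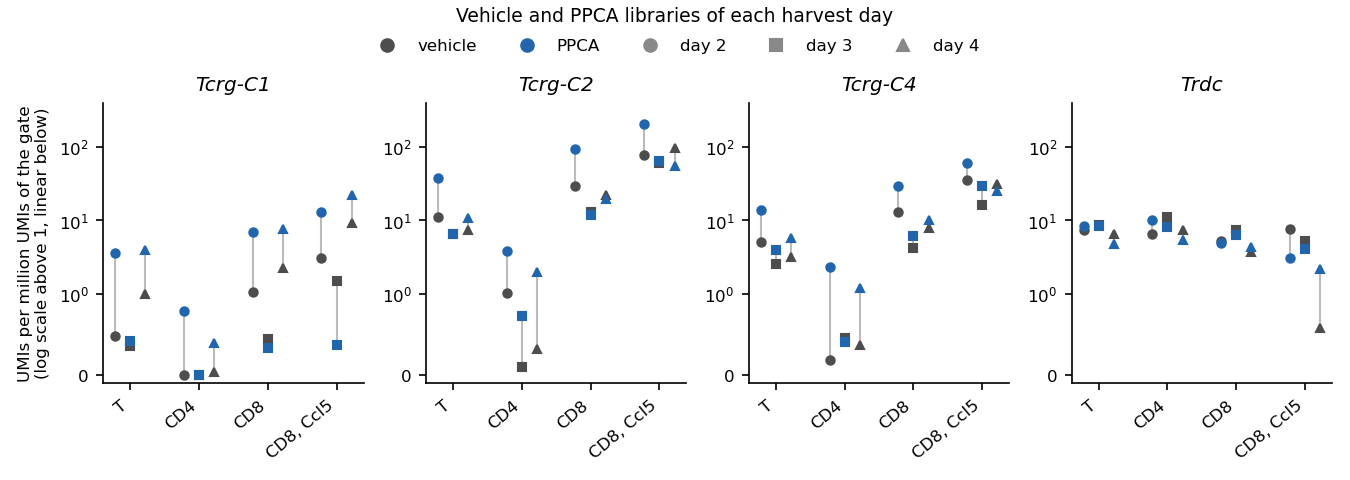
Level of each constant region (CPM, symmetric log axis) in vehicle and PPCA libraries, joined by day, in T cells, CD4 cells, CD8 cells and CD8 Ccl5-positive cells. In CD8 Ccl5-positive cells the Tcrg-C2 line goes from 78.8 to 210 CPM on day 2, from 60.8 to 63.9 on day 3 and from 97.9 to 55.5 on day 4.

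Active and onset diabetes had 1 library each, so no test was possible. Within the CD8 Ccl5-positive class Tcrg-C1 had 6 UMIs (1.23 CPM) in the active and 135 UMIs (30.1 CPM) in the onset library, a log2 ratio of -4.62 (exact 95% interval -6.09 to -3.46, counting error only), or 24.5-fold lower in active. In this class 1.04% of features were at least 2-fold lower in active. Tcrg-C2 gave -0.25 (-0.41 to -0.09), Tcrg-C4 0.01 (-0.21 to 0.23) and Trdc -1.12 (-2.38 to 0.04). Over all CD8 cells Tcrg-C2 gave -0.92 (-1.08 to -0.76), Tcrg-C4 -0.69 (-0.90 to -0.48) and Trdc 0.73 (0.28 to 1.19). In double-negative cells Tcrg-C4 gave 1.44 (0.80 to 2.09), Tcrg-C2 0.71 (0.10 to 1.32) and Trdc -0.86 (-1.45 to -0.30).

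The split of libraries by Xist or Y-linked transcripts moved with one member. Tcrg-C2 in CD8 Ccl5-positive cells was at 97.9 to 210 CPM (median 135) in the 4 libraries with Xist and at 55.5 to 78.8 CPM (median 62.3) in the 4 with Y-linked transcripts, without overlap. In this class 2.2% of 7407 features were higher, and 0.621% lower, in the libraries with Xist without overlap. The ranges of Tcrg-C4 (31.3 to 75.6 and 16.3 to 35.2 CPM), Tcrg-C1 and Trdc overlapped. This split was chosen after the data were seen, and active and onset both fall on its Xist side.

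In the authors' deposited table of cluster markers, which lists 2100 gene and cluster pairs for 7 clusters, Tcrg-C2 and Tcrg-C4 appear for 1 cluster, named CD8 TRM TEM. The authors' deposited table gives Tcrg-C2 a log2 fold change of 1.71 against the other cells, with detection in 39.5% of the cluster's cells. In the authors' deposited table Tcrg-C4 has 0.90, with detection in 20.7%. Tcrg-C1 and Trdc are not among its listed markers.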

How the data were processed

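The deposited matrices hold raw UMI counts per gene and cell, made by the authors with Cell Ranger 6.0.0, per the file headers; the submitters' processing notes name Cell Ranger 6.1.2 and Seurat. The genome build is not given in the sources used here, and 32235 of 32285 feature IDs (99.8%) matched the GENCODE vM21 annotation of GRCm38. The authors' deposited marker table gives log2 fold changes, p-values and detection as a fraction of cells, printed here as percent. The members and gene lists were chosen with earlier results of these data known.

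Barcodes with at least 500 genes, under 10% mitochondrial UMIs and outside the highest Scrublet doublet scores (0.8% per 1000 barcodes) were kept. Raw counts were summed per library and class and given per 1000000 UMIs (CPM). Libraries held 33557317 to 57512105 T cell UMIs. Genes named beyond the members were V segments with at least 50 UMIs, the 5 best correlated genes per member, the 10 largest changes each way outside receptor segments with the same sign in 8 libraries at 20 CPM or more, and the 3 largest changes each way of each list; others are said to have been chosen after their values were seen. Tests used edgeR 4.0.16 with TMM scaling and its filter on low counts (quasi-likelihood, Benjamini-Hochberg adjusted p under 0.05), with DESeq2 1.42.0 and limma 3.58.1 as alternatives, in R 4.3.3. Log2 fold changes are TMM-scaled, CPM are not. Days paired the libraries: deviations of same-day vehicle and PPCA libraries correlated at 0.20 to 0.54. For shares, cells were thinned to 2000 UMIs, and floors are 3 counts. Intervals are exact 95% (binomial or Poisson) and cover counting error only. On simulated data the T cell comparison recovered 200 of 200 genes changed 2-fold, with 3 false calls of 13291. The gamma constant contrast recovered 194 of 200 with 8 false of 6942. Recovery at the low levels of the members, and at their spread between libraries, was not tested. Counts are not scaled by transcript length, so levels of different genes are not ranked. Not every gene that the naming rule picked is named, and some are not reported here, though list counts include them.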

Additional observations from a re-analysis of the deposited data

How the results depend on the processing

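Of 2330 values recomputed under alternatives for 169 results, 2111 were judged the same and 219 were not. Tested fold changes and share differences had to keep their direction and side of the threshold. Counts of features had to stay near the main count, class ratios within the SD, and active over onset ratios within their counting intervals. The cause of the changes was not tested. CD8 over CD4 and, within CD8 cells, Ccl5-positive over Ccl5-negative each kept their direction in 56 of 56 recomputed values. The count of features called for PPCA against vehicle was unstable. With DESeq2 it was 68 in T cells, 35 in CD4, 40 in CD8, 29 in double-negative and 23 in CD8 Ccl5-positive cells; without the low-count filter 122, 139, 157, 229 and 147; with Xist status as a factor 62, 185, 173, 285 and 187. In CD8 cells it was 2 with DESeq2 size factors, limma-voom or without B and myeloid cells and 3 thinned; in CD8 Ccl5-positive cells 2 with limma-voom or with no doublet filter, 4 thinned and 0 with no replicate block. The replicate block changed no member's call. Leaving out a library pair or library gave 0 to 35 calls in T and 0 to 44 in CD4 cells. It gave 0 to 198 in CD8, 0 to 268 in double-negative and 4 to 127 in CD8 Ccl5-positive cells. The T cell maximum of 35 came without the day 4 pair. Fits with Xist status or with a pair left out had nearly as many terms as libraries, so their calls are uncertain.

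Without the filter these passed with PPCA higher: in T cells Tcrg-C1 (1.76) and Tcrg-C4 (0.90), in CD4 Tcrg-C2 (2.21), in CD8 Tcrg-C1 (1.66) and Tcrg-C4 (0.63), in double-negative Tcrg-C4 (0.90) and in CD8 Ccl5-positive Tcrg-C1 (1.29). With Xist status these did: Tcrg-C2 in CD4 (2.26), Tcrg-C1 (1.78) and Tcrg-C4 (0.63) in CD8, Tcrg-C4 in double-negative (0.91) and Tcrg-C1 in CD8 Ccl5-positive cells (1.37). With a library pair left out, log2 fold changes ran as follows: Trdc in CD4 -0.57 to 0.070; in CD8 Tcrg-C2 -0.26 to 0.74, Tcrg-C4 0.35 to 0.78 and Trdc -0.30 to 0.024; in double-negative Tcrg-C4 0.57 to 1.28 and Trdc -0.81 to 0.031; in CD8 Ccl5-positive Tcrg-C2 -0.48 to 0.69, Tcrg-C4 0.15 to 0.72 and Trdc -1.02 to 0.19. Tcrg-C2 turned negative in the CD8 gates without day 2. Share differences (percentage points) ran from -4.49 to 6.90 for Tcrg-C2, -0.24 to 0.033 for Trdc and -1.51 to 8.63 for any gamma constant region in CD8 Ccl5-positive cells, and from -0.158 to 0.0768 for Trdc in T cells; Trdc at 2 UMIs gave 0.0159 and unthinned in CD8 Ccl5-positive cells 0.0933.

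For Trdc-positive T cells, counts higher and lower were 21 and 36 with DESeq2 size factors, 20 and 184 without the filter, 1 and 0 with no replicate block, 36 and 176 unthinned, 3 and 245 at 2 UMIs and 2 and 1 without Ccl5; DESeq2 called 13 lower, and leaving out a library gave 41 to 71 lower (41 without active). For gamma-positive CD8 Ccl5-positive cells they were 464 and 515 with no replicate block, 1611 and 1675 unthinned and 266 and 351 at 10 Ccl5 UMIs, with 528 higher at 2 UMIs. For gamma-positive double-negative cells they were 379 and 1005 without the filter, 637 and 930 unthinned and 108 and 932 at 2 UMIs, with 225 lower by DESeq2 and 330 with its size factors. Directions turned for Trbc1 at 2 UMIs (-0.091), Gzma with DESeq2 (-0.76) and Trbc2 without the filter (-0.024) and at 2 UMIs (-0.21), and Ifng without Ccl5 (0.48). Active against onset, thinned, gave Tcrg-C4 0.42 in T and 0.28 in CD8 Ccl5-positive cells and Tcrg-C2 -0.76 in CD8 and 0.0145 in CD8 Ccl5-positive cells. Depth limits Tcrg-C1, at 0 to 6 UMIs in several library and class sums.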

Other observations

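Trdv5, with 19 UMIs in 16 T cells and so below the minimum for naming, was picked out after its values were seen: 9 of the 16 cells (56.25%, exact 95% interval 29.9% to 80.2%) had a Trdc UMI, against 2.26% of the other T cells.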
